A study of Oryza sativa Japonica Group with 17 samples.

Results

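The rice reference annotation that names its loci LOC_Os also carries predicted genes on 2 sequences that were never placed on a chromosome, ChrUn and ChrSy. These loci were taken as every identifier of the deposited expression table that does not start with LOC_Os. There were 185 of them among 55986 loci in all, 96 on ChrUn and 89 on ChrSy, numbered without gaps from 1 on each sequence. All are predictions of the program FGENESH, as their identifiers state, and no gene name, function or position inside the sequence comes with them in the files, so they are given by sequence and number only (ChrUn.fgenesh.gene.80 and so on). The H3K27me3 peaks and 24-nt small RNAs listed on the same sequences were set beside them.

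DDM1 is a chromatin remodeller of the SNF2 family that lets DNA methyltransferases reach nucleosome-bound heterochromatin, and in plants that lack it transposons and repeats lose methylation and some become transcribed. Sequence that cannot be anchored to a chromosome is often rich in repeats, because repeats prevent the placement of a clone, and gene predictions there include fragments of transposons as well as real genes. H3K27me3 is the mark of Polycomb repression, H3K9me2 marks silent heterochromatin, and 24-nt small RNAs guide the methyltransferase DRM2 to its targets.

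The series holds 17 samples of 12-day-old rice seedlings (Oryza sativa), of which 8 were used here, harvested as leaves per the labels' growth protocol. RNA-seq compared osddm1a/1b, the mutant of the rice DDM1 pair, with Cr-DJ-1, its wild type (2 libraries each). Both are labelled with the variety DongJin. The titles of the mutant libraries name osddm1a/1b, whereas their characteristics name osddm1b alone. H3K27me3 was profiled in Cr-DJ and H3K9me2 in ZH11, another variety (1 library each), and 24-nt small RNAs in Cr-DJ and in osdrm2, the mutant of DRM2 in DongJin (1 library each). The labels call the RNA-seq libraries repeats and say nothing of separate plants, so p-values rest on library-to-library spread alone, and that spread may be technical.

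The expression values are the authors' own comparison. The table gives per locus the mean over the 4 libraries of the count divided by the library's size factor (called the mean count below), a log2 change moderated towards 0 at low counts, its standard error and an adjusted p, which only loci with a mean count of 2.88 or more received. The direction of the change is not stated there. It was turned so that positive values mean higher in osddm1a/1b, which makes OsDDM1b (LOC_Os03g51230) the lowered gene (-3.27, SE 0.16, adjusted p = 1.27e-86, all from the authors' deposited table) and leaves OsDDM1a (LOC_Os09g27060) at -0.14 (SE 0.16, adjusted p = 0.511). Because OsDDM1b helped to set the direction, every "rose" and "fell" and every assignment of reads to a genotype below carries that condition. Leaf markers were high, with mean counts of 41934 and 121360 for both RbcS loci and 1534 to 3070 for 3 light-harvesting genes. In the authors' deposited table they moved in both directions: CAB2R, CAB1R and Lhcb2 of the light-harvesting complexes rose by 1.62 (adjusted p = 2.71e-202), 1.23 (1.07e-73) and 1.21 (2.3e-61), while the RbcS loci, which encode the small subunit of Rubisco, fell by 0.60 (1.84e-217) and 0.17 (1.96e-34). Of the other tissues' markers, GluA1 of the endosperm stood at a mean count of 4.52, OsIRT1 of the root at 11.1, OSH1 of the shoot meristem at 30.4, GluA2 of the endosperm at 223.6 and OsLsi1 of the root at 486.4. OSH1 rose by 1.59 (SE 0.36, adjusted p = 3.83e-05, all from the authors' deposited table) and GluA2 fell by 0.40 (SE 0.17, adjusted p = 0.0481 there), and the part of any of these markers in the results was not tested.

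Whole reads per library could be worked back from the mean count, because 1 read adds a fixed step to the mean that differs between the 4 libraries. The size factors found this way were 1.10 and 0.891 in Cr-DJ-1 and 1.15 and 0.888 in osddm1a/1b. Up to a mean count of 30, all 19174 loci of the table with any read had a single whole-number solution. Reads are given below in the order larger size factor, then smaller. Which of them is repeat 1 or 2 is unknown, and so is the depth of each library.

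Most unanchored loci were silent. In the authors' deposited values, 107 of the 185 loci (57.8%) had a mean count of 0 in all 4 libraries, against 26.0% of all loci. A further 49 had some reads but no adjusted p, and 29 (15.7%) were tested, against 52.2% of all loci. ChrUn was the more silent sequence, with 66 of 96 loci at 0 (68.8%) and 7 tested, while ChrSy had 41 of 89 at 0 (46.1%) and 22 tested. The short arms of chromosomes 4 and 10, which are rich in heterochromatin, lay between the unanchored loci and the rest of the genome. There 39.8% of 1420 and 38.6% of 1193 loci were at 0, and 29.6% and 34.6% were tested.

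**Figure D1:**
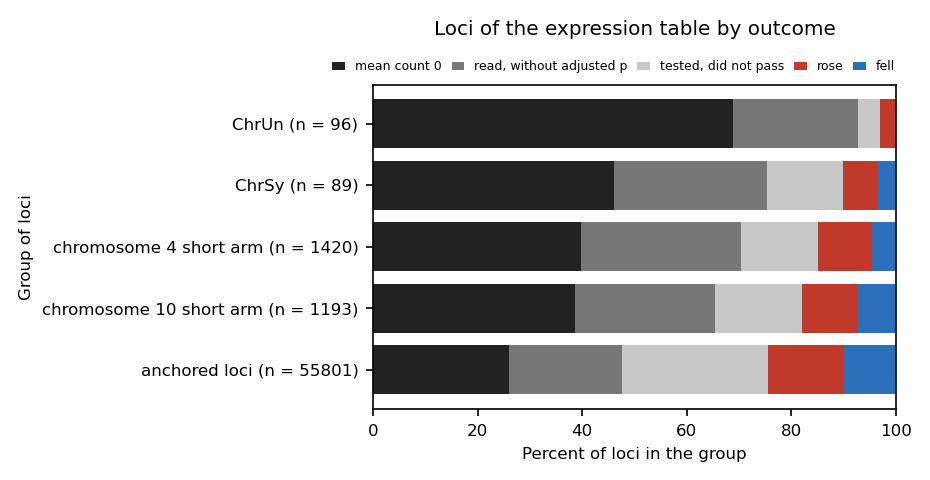
Stacked bars give the percent of loci (x axis) in each group of loci (y axis) that had a mean count of 0, had reads but no adjusted p, were tested without passing, rose or fell in osddm1a/1b at an adjusted p under 0.05. The share at 0 was 68.8% on ChrUn, 46.1% on ChrSy and 25.9% among loci anchored to chromosomes.

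Of the 29 tested loci, 12 (41.4%) passed an adjusted p of 0.05 in the authors' deposited table (DESeq2's Wald test with Benjamini-Hochberg adjustment over the whole table), where 46.7% of all 29212 tested loci did. In osddm1a/1b 9 rose (31.0%, against 27.6% of all tested loci) and 3 fell (10.3%, against 19.1%). The shares called and risen were thus near those of the whole table, while the share of falls was lower and rests on 3 loci. On the short arms of chromosomes 4 and 10, 34.8% and 30.5% of tested loci rose and 15.7% and 21.3% fell. The 29 had a median mean count of 21.3, against 245.2 over all tested loci, so these shares do not compare loci of like count. The median log2 change of the 29 was 0.13, beside 0.05 over all tested loci. At least 2-fold rises were found in 4 of the 29, where 11.7% of all tested loci had one. At least 2-fold falls were found in 2 of the 29, where 2.93% of all tested loci had one. The largest changes were those of 2 loci on ChrUn, which were close to silent in the wild type and well expressed in the mutant.

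**Figure D2:**
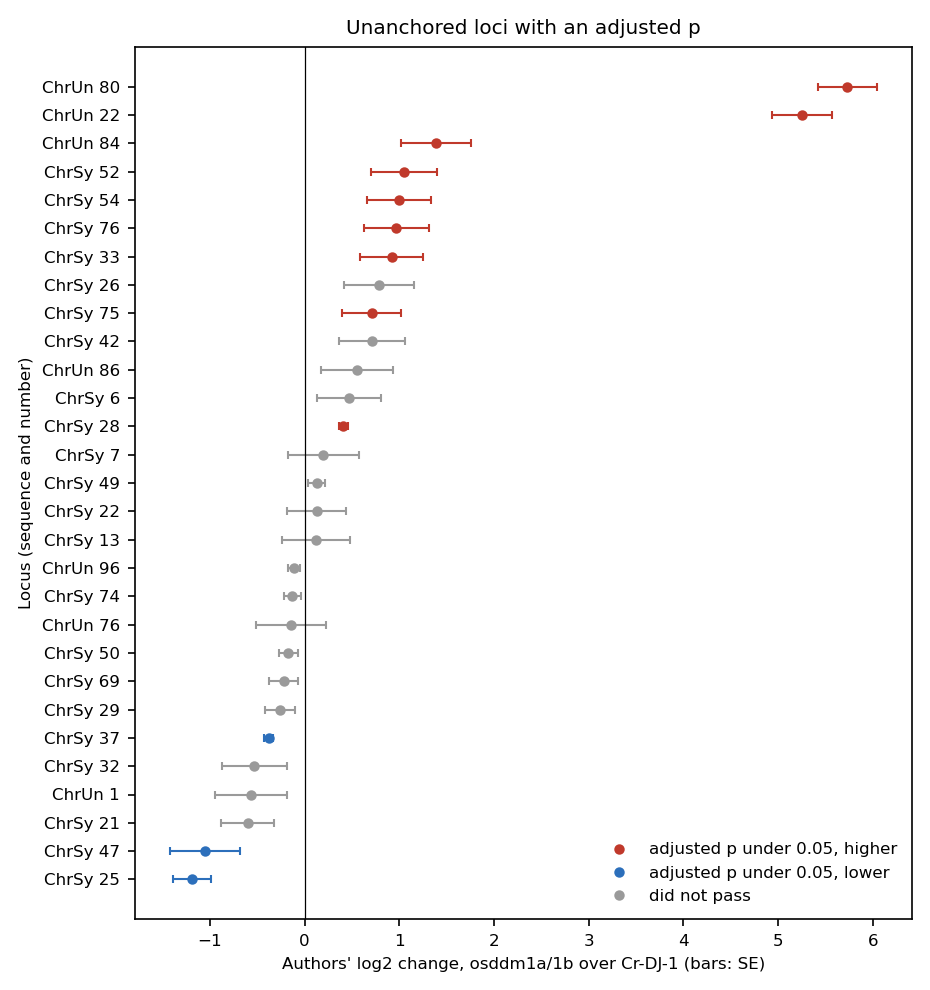
Points give the authors' log2 change of osddm1a/1b over Cr-DJ-1 (x axis) with its standard error for the 29 tested unanchored loci (y axis), coloured by whether they rose, fell or did not pass an adjusted p of 0.05. ChrUn 80 and ChrUn 22 stand apart at 5.73 and 5.25, and the other 27 lie between -1.19 and 1.39.

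ChrUn.fgenesh.gene.80 had 0 and 0 reads in the Cr-DJ-1 libraries and 521 and 415 in those of osddm1a/1b. Divided by size factors, the mutant libraries stood at 451.2 and 467.4, close to each other and far from the wild type. The mutant mean of 459.3 was 305.2 times a floor of 3 reads over both wild-type libraries. Such folds over the floor leave out the counting error of the mutant reads, so they are not lower limits. The authors' deposited table gives this locus a moderated log2 change of 5.73 (SE 0.31, adjusted p = 1.93e-72), the 135th largest rise of 29212 tested loci. ChrUn.fgenesh.gene.22 behaved alike, with 1 and 0 reads in Cr-DJ-1 and 413 and 288 in osddm1a/1b. Its mutant level was 684.2 times that of the wild type, with an exact (Clopper-Pearson) 95% interval from 122.4 to 27064.3 that covers counting error only and is wide because it rests on 1 wild-type read. Its moderated log2 change was 5.25 (SE 0.32, adjusted p = 3.42e-59, as the authors' deposited table gives them), the 218th largest rise.

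For these loci the mean count alone allowed 85 and 27 sets of whole reads. In each case 1 set had a ratio between the genotypes as large as the authors' moderated change, in the same direction, and that set is the one given. With mean counts of 229.6 and 170.7 over the 4 libraries, both loci ranked among the upper 26.6% and 29.0% of the table by mean count.

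Next came 6 loci with few reads, nearly all of them from the mutant. ChrUn.fgenesh.gene.84 had 0 and 0 reads in Cr-DJ-1 and 18 and 17 in osddm1a/1b, a mutant mean 11.5 times the floor (log2 change 1.39, SE 0.37, adjusted p = 0.000536, all from the authors' deposited table). ChrSy.fgenesh.gene.52 had 1 and 0 reads in Cr-DJ-1 and 19 and 9 in osddm1a/1b, a ratio of 27.3 (exact 95% interval 4.52 to 1118, counting error only), with a log2 change of 1.05 (SE 0.35, adjusted p = 0.0084, as the authors' deposited table gives them). ChrSy.fgenesh.gene.54 had 13 and 10 reads in the mutant and none in the wild type, a mutant mean 7.48 times the floor (adjusted p = 0.00954 in the authors' deposited table). In each of these 3 loci both mutant libraries lay above both wild-type libraries.

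The other 3 were read in osddm1a/1b only. ChrSy.fgenesh.gene.76 had 10 and 12 mutant reads (7.37 times the floor, adjusted p = 0.011 in the authors' deposited table). ChrSy.fgenesh.gene.33 had 12 and 9 (6.82 times the floor, adjusted p = 0.0149 in the same deposited table). ChrSy.fgenesh.gene.75 had 7 and 8 (5.01 times the floor, adjusted p = 0.0486 in the authors' deposited table). These last 3 had moderated log2 changes of 0.97, 0.92 and 0.71 there, which understate the change of loci with so few reads. Of the 8 loci described so far, 6 had no wild-type read and 2 had 1. The loci were chosen as rises, and those with few reads could be tested only because of their mutant reads. Few wild-type reads are thus partly built into the choice, and the same share over all risen loci was not computed.

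By mean count, the calls were spread as follows. Below a mean count of 10, 6 of 12 tested unanchored loci rose (against 25.7% of all tested loci in that range) and none fell (1.43% of all). At 10 to 100, none of 6 rose and 1 fell, where 30.0% and 7.87% of all did. At 100 or more, 3 of 11 rose and 2 fell, against 4966 and 4989 of all 18380 tested loci in that range. These counts describe loci with enough reads to be tested, and a locus read in 1 genotype alone reaches that limit only through the genotype that has reads.

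**Figure D3:**
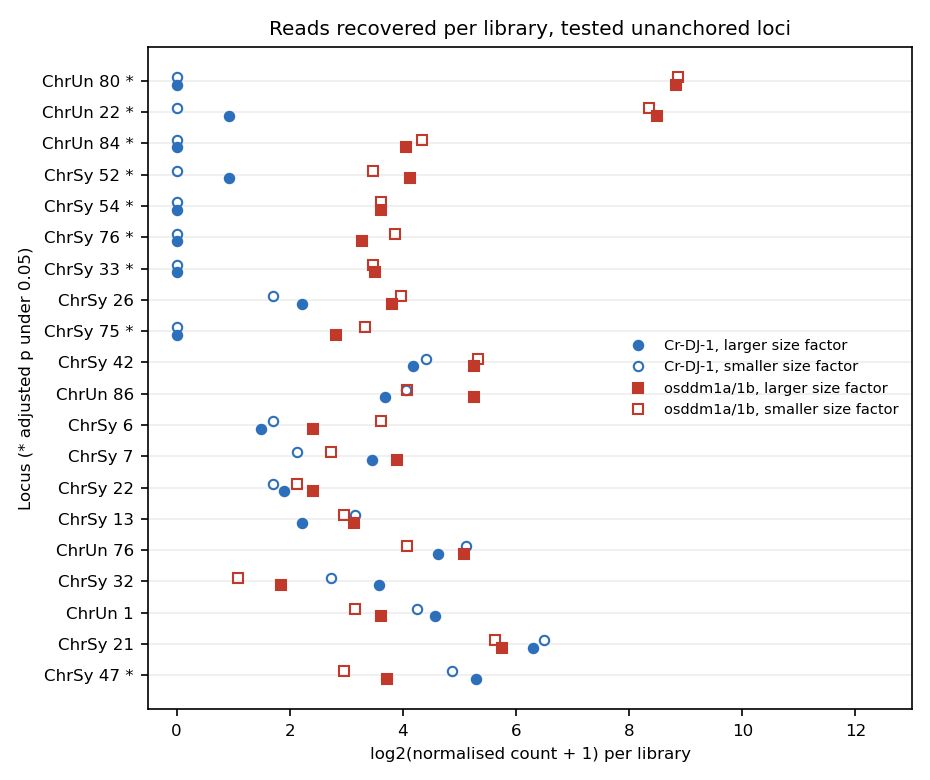
Each row is 1 of the 20 tested unanchored loci with recovered reads (y axis), with the log2 of the normalised count plus 1 in each library (x axis) as circles for Cr-DJ-1 and squares for osddm1a/1b. For ChrUn 80, ChrUn 84 and ChrSy 54, 76, 33 and 75 both wild-type libraries sit at 0, while all mutant libraries of these loci lie at 6.06 normalised counts or more.

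The remaining calls were changes of expressed loci. ChrSy.fgenesh.gene.28 rose by 0.41 (SE 0.05, adjusted p = 2.51e-13, all from the authors' deposited table), a 1.33-fold change at a mean count of 2669. The level computed from the authors' mean and change was 2288 in Cr-DJ-1 and 3050 in osddm1a/1b. ChrSy.fgenesh.gene.37, the unanchored locus with the highest mean count (2875), fell by 0.38 (SE 0.05, adjusted p = 2.36e-11, all from the authors' deposited table), from a computed level of 3254 to 2495. These 2 strongly expressed loci of ChrSy therefore changed in opposite directions by similar amounts.

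The larger falls were both on ChrSy. ChrSy.fgenesh.gene.25 fell by 1.19 (SE 0.20, adjusted p = 1.8e-08, all from the authors' deposited table), from a computed level of 247.4 in Cr-DJ-1 to 108.7 in osddm1a/1b. Its reads per library could not be settled, since 11 sets of whole reads met the authors' change. ChrSy.fgenesh.gene.47 had 42 and 25 reads in Cr-DJ-1 and 14 and 6 in osddm1a/1b, with a log2 change of -1.05 (SE 0.37, adjusted p = 0.0128, all from the authors' deposited table). Normalised, Cr-DJ-1 stood at 38.1 and 28.1 counts against 12.1 and 6.76 for osddm1a/1b, and the genotypes did not overlap. All 3 falls were on ChrSy, and none of 7 tested loci of ChrUn fell. With so few loci the sequences were not compared by a test.

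The other strongly expressed loci did not pass. ChrUn.fgenesh.gene.96 had a mean count of 2445 and a log2 change of -0.11 (SE 0.06, adjusted p = 0.0897, all from the authors' deposited table). ChrSy.fgenesh.gene.74 stood at -0.13 (SE 0.09, adjusted p = 0.228) and ChrSy.fgenesh.gene.49 at 0.13 (SE 0.09, adjusted p = 0.238, as the authors' deposited table gives them), with mean counts of 961.7 and 887.1. Together with 3 more, whose mean counts were 256.5 to 672.3, they made up, with ChrSy.fgenesh.gene.28 and ChrSy.fgenesh.gene.37, all 8 with a mean count of 256.5 or more. Their log2 changes all lay between -0.38 and 0.41 in the authors' deposited table, and 2 of the 8 passed. The share of all loci that passed at this limit was not computed. At a mean count of 100 or more, 5 of 11 tested unanchored loci passed, against 54.2% of all tested loci.

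The 17 tested loci that did not pass had log2 changes from -0.60 to 0.79 in the authors' deposited table. The following are named after their values were seen. ChrSy.fgenesh.gene.26 had 4 and 2 reads in Cr-DJ-1 and 15 and 13 in osddm1a/1b (adjusted p = 0.0677 in the authors' deposited table). ChrSy.fgenesh.gene.42 had 19 and 18 against 43 and 35 (adjusted p = 0.0897 in that deposited table). In both, the mutant libraries lay above those of the wild type. ChrSy.fgenesh.gene.32 was read the other way, with 12 and 5 reads in Cr-DJ-1 and 3 and 1 in osddm1a/1b. In ChrUn.fgenesh.gene.86 one mutant library decided the mean, with 13 and 14 reads in Cr-DJ-1 against 43 and 14 in osddm1a/1b. Over the 17 tested loci with a mean count up to 30, both mutant libraries lay above both wild-type ones in 11 (64.7%, against 56.7% of 6984 tested loci in that range), the reverse held in 3 (17.6%, against 17.3%), and 3 overlapped.

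The 49 loci with reads but no adjusted p were mostly single reads. Among all 66 unanchored loci with a mean count from above 0 to 30, 27 had 1 read in total, which was in osddm1a/1b in 23 (85.2%) and in Cr-DJ-1 in 4. Of all 4211 loci of the table with 1 read in total, 71.1% had it in osddm1a/1b. Summed over the 49 loci, there were 15 and 17 reads in Cr-DJ-1 and 44 and 49 in osddm1a/1b. Both mutant sums were above both wild-type sums. Reads in the mutant only were found in 35 of the 49 loci (71.4%) and in the wild type only in 7 (14.3%). Over all 12190 loci of the table without an adjusted p, the corresponding shares were 57.5% and 14.5%, with 31296 reads in osddm1a/1b and 10936 in Cr-DJ-1. The surplus of mutant reads at nearly silent loci was thus seen in the whole table, with 93 against 32 reads on the unanchored sequences. Among loci with a mean count from above 0 to 30, 60.6% of the unanchored ones were read in the mutant only. That share was 58.5% and 54.3% on the short arms of chromosomes 4 and 10 and 44.9% over all loci. For reads in the wild type only, the 4 shares were 10.6%, 9.2%, 9.05% and 9.45%.

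Loci with successive numbers were seldom called together. ChrSy.fgenesh.gene.75 and ChrSy.fgenesh.gene.76 were the one pair of successive numbers that passed in the same direction. Between the risen ChrSy.fgenesh.gene.52 and ChrSy.fgenesh.gene.54, the untested ChrSy.fgenesh.gene.53, named after its value was seen, had 0 and 0 reads in Cr-DJ-1 and 6 and 4 in osddm1a/1b. On ChrUn, 5 of the 7 tested loci carried numbers from 76 upward, a range that holds 21 of the 96 loci and was chosen after the values were seen. Whether the numbers follow position is not stated in the files.

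Peaks of H3K27me3, the histone mark of Polycomb repression, were listed on both sequences. The authors' peak list for H3K27me3, called from 1 library of Cr-DJ without a control, held 20 peaks on ChrSy and 5 on ChrUn among 13385. Taking the largest coordinate in any file as the length, ChrSy was at least 555010 bp and ChrUn at least 631444 bp long. ChrSy had 36.0 peaks per Mb, inside the range of 32.9 to 38.5 over the 12 chromosomes, but its peaks covered 5.56% of its length, below the 6.76 to 8.44% of the chromosomes. ChrUn had 7.92 peaks per Mb and 0.926% cover, the lowest of the 14 sequences on both measures. The peaks were short, with medians of 1165 bp on ChrSy and 966 bp on ChrUn against 1542 bp on the chromosomes. There is no replicate, so these differences have no test.

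Fold enrichment is the authors' own value per peak, over the local background of the same library. Its median was 4.61 on ChrSy and 4.80 on ChrUn, above the range of 3.91 to 4.07 over the chromosomes. Read density went the other way, with medians of 133.0 reads per kb on ChrSy and 116.2 on ChrUn against 150.4 on the chromosomes. A fold of 5 or more was listed for 10 of the 25 peaks (40.0%) and for 23.6% of the peaks on chromosomes. The 5 highest were all on ChrSy, at 380391 to 381231 (15.11-fold, 205 reads), 370423 to 372149 (8.04-fold, 455 reads), 461773 to 462968 (7.85-fold, 270 reads), 199211 to 200602 (6.61-fold, 345 reads) and 151148 to 152790 (6.50-fold, 417 reads), in the coordinates of the peak list, whose genome build no label or header names. The first of them had the second highest fold of the whole list but only the 1476th highest read density, 243.8 reads per kb. The longest unanchored peak, on ChrSy from 30085 to 34929 (4845 bp), had the highest density among the 25, 290.2 reads per kb, at a fold of 4.83.

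**Figure D4:**
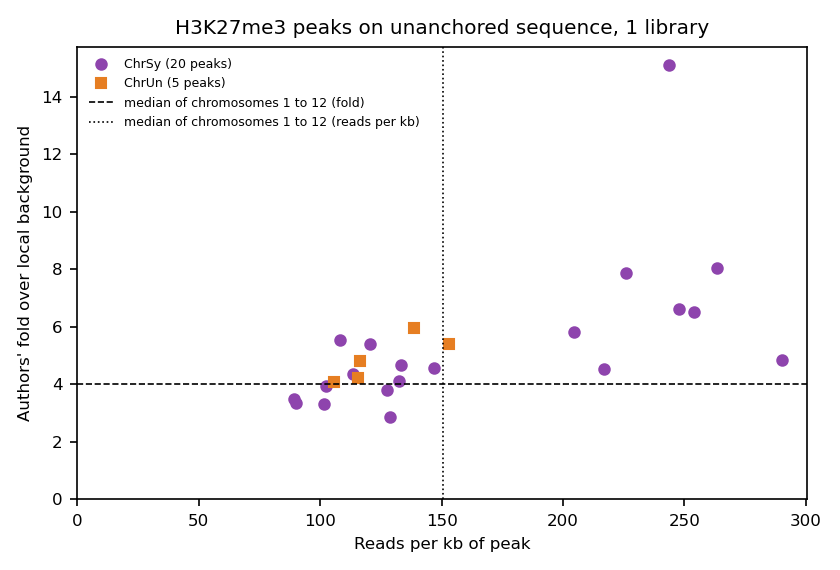
Each point is 1 of the 25 H3K27me3 peaks on ChrSy (circles) or ChrUn (squares), with reads per kb of peak on the x axis and the authors' fold over local background on the y axis. Lines mark the medians of chromosomes 1 to 12, 4.01-fold and 150.4 reads per kb, and the peak at 15.11-fold stands apart in fold but not in density.

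By a division made after the values were seen, 8 peaks on ChrSy had 204.4 to 290.2 reads per kb and 12 had 89.1 to 146.8. The 3 peaks between 199211 and 207442 were separated by gaps of 2279 and 2103 bp and all belonged to the denser ones. On ChrUn, 4 of the 5 peaks lay in the last 43.0 kb (588467 to 631444, a stretch set from these peaks), which is 6.81% of the sequence, and 1 lay apart from 249137 to 250040. The highest fold on ChrUn was 5.96, for the peak from 599438 to 600751. No peak could be tied to a locus, because the positions of the loci are not part of the files used here.

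No H3K9me2 peak was listed on ChrSy or ChrUn, so no H3K27me3 peak there met one. The list of 10159 H3K9me2 peaks, from 1 library of ZH11, held 20.6 to 33.9 peaks per Mb on each of the 12 chromosomes. No label or header says whether that library was aligned to the unanchored sequences, so a list without a peak there is no measure of the mark on these sequences. The lists also come from different varieties.

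Small RNAs of 24 nt were few on the unanchored sequences, and they were listed mainly on ChrSy. The Cr-DJ list held 154 reads there at 11 positions, 0.145% of 106418 listed reads (exact 95% interval 0.123 to 0.169%). The osdrm2 list held 62 at 12 positions, 0.0398% of 155764 (0.0305 to 0.051%). ChrSy makes up 0.148% of the total sequence length and ChrUn 0.169%. In Cr-DJ the share of reads on ChrSy, 0.138% (0.117 to 0.162%), held its share of length within the interval, whereas that on ChrUn was 0.00658% (0.00264 to 0.0136%). The match on ChrSy rests on 1 position, which gave 59.2% of the 147 reads there and left 60 without it. In osdrm2 both sequences were below their share of length, with 0.0289% of reads on ChrSy (0.0211 to 0.0387%) and 0.0109% on ChrUn (0.00636 to 0.0175%). Each genotype had 1 library, both lists hold only positions with at least 4 reads, and amplified reads are not independent molecules, so the intervals cover counting error only and the difference has no replicate check.

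A single site made up most of the surplus in Cr-DJ. The position on ChrSy from 234475 to 234498 had 87 reads in Cr-DJ, 56.5% of all its reads on these sequences and the 50th highest of 11243 positions. With 2 overlapping positions starting at 234480 and 234485 (9 and 6 reads) it gave 102 reads. None of these 3 positions was listed in osdrm2, where the nearest listed position, from 234946 to 234969, had 8 reads. Without the 87 reads the Cr-DJ list kept 67 reads, or 0.063% of its total. The next highest positions of Cr-DJ were from 117645 to 117668 (12 reads), from 117636 to 117659 (9 reads) and from 319953 to 319976 (8 reads), all on ChrSy and none listed in osdrm2.

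**Figure D5:**
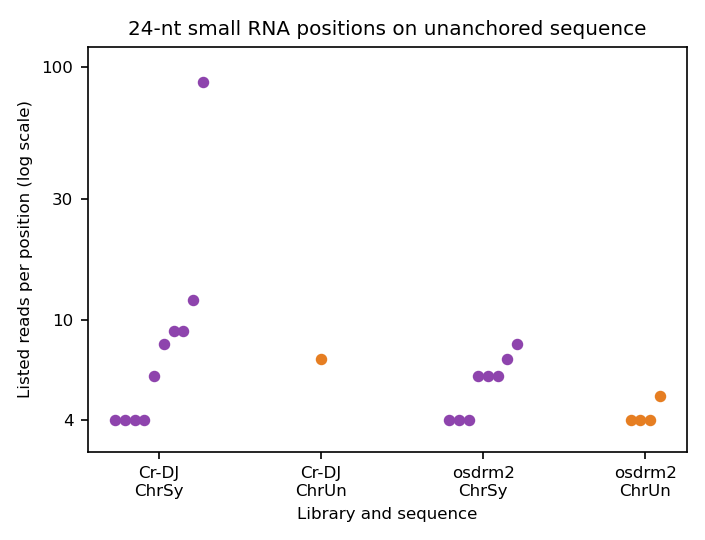
Each point is 1 listed 24-nt position on ChrSy or ChrUn, with its reads on a log scale (y axis) by library and sequence (x axis). One position of Cr-DJ on ChrSy has 87 reads and the other 22 positions have 4 to 12.

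In osdrm2 no position exceeded 8 reads. After the one near 234946, the highest were on ChrSy from 262564 to 262587 (7 reads) and from 24838 to 24861, 115194 to 115217 and 165588 to 165611 (6 reads each). On ChrUn the Cr-DJ list held 1 position (627814 to 627837, 7 reads) and the osdrm2 list 4, with 17 reads. Of these 5 positions, 4 lay in the last 43.0 kb, the stretch that also held 4 of the 5 H3K27me3 peaks of ChrUn. Both lists shared 2 positions, on ChrSy from 97315 to 97338 (4 reads in each) and from 165588 to 165611 (4 reads in Cr-DJ and 6 in osdrm2), which is 18.2% of the Cr-DJ and 16.7% of the osdrm2 positions. None of the 23 listed positions, with the 2 shared ones counted in each list, lay inside an H3K27me3 peak. The nearest was 108 bp from one. The peaks cover only 3.09% of these sequences, and the share of positions inside peaks over all sequences is not given here. No avoidance of the peaks can be read from so few positions. The sources used here do not give how reads with several possible positions were treated in any of the assays, and on unplaced sequence this can decide whether a read is listed at all.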

How the data were processed

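The loci and comparison groups were chosen with earlier results of these data known. Samples were grouped by title. The submitters' processing notes list, with no role for any, edgeR, HTSeq, Bowtie, Bowtie2 (2.1.0), Trimmomatic, DESeq2, FastQC and TopHat. The sources used here do not give the genome build.

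The expression table came without a header. Its columns were identified from the values: the deposited signal (mean of counts divided by size factors over 4 libraries), the authors' log2 change, the standard error of that change, the Wald score, and the p-value before and after adjustment. The score equalled change over standard error within 1.66e-06 and the adjusted p-value a Benjamini-Hochberg adjustment within 2.46e-07. It has no columns per library. The authors' DESeq2 calls were taken at 0.05, and no model was fitted again: the reads recovered below leave out most loci with higher counts and serve only as a description. Reads per library were solved from the steps of the mean with Python 3.11.15 and numpy 2.4.6, with the 4 steps fitted on 2242 values (largest residual 5.15e-10). In simulated data, 100% of 4435 simulated loci at mean counts up to 30 came out unique and right. The simulation shows only that solutions are unique once the steps are given. Whether the 4 fitted steps are right, or tied to the right genotype, was not tested by it. It also stops at a mean count of 30, so it does not cover the choice among several sets of reads at higher counts. Levels from the authors' mean and change are too close to each other, since the change is moderated. Over 753 loci with mean counts of 20 to 30 and a log2 change under 1 in size, it was too small by a median of 0.18. Larger changes, such as that of ChrSy.fgenesh.gene.25, were not part of this check. For ChrSy.fgenesh.gene.47 the recovered means were 33.1 in Cr-DJ-1 and 9.44 in osddm1a/1b, against computed levels of 28.7 and 13.8. Folds against 0 reads divide the mutant mean by 3 reads over both libraries, 1.50 normalised counts, and leave out the counting error of the mutant reads.

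Peaks, with their read count, score and fold (a ratio to local background), were called by MACS 1.4.2 at a p-value limit of 1e-05, with no control, per the file headers, from 19709518 (H3K27me3) and 19160896 (H3K9me2) reads. The series' file list names Cr-DJ for H3K9me2, but label and header give ZH11, and they were followed. Small RNA files list 1 alignment per line, all on the plus strand, and identical lines were counted. Chromosome arms were cut by locus number (below LOC_Os04g17000 and LOC_Os10g16000).

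By rule, the text names the 10 largest rises and falls among loci that passed (all, as there were fewer), the 5 highest means, runs of 3 successive calls, the 5 highest peaks and the 5 highest small RNA positions. Not analysed here were the Bs-seq libraries and the RNA-seq of osdrm2 and Cr-DJ-2.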

Additional observations from a re-analysis of the deposited data

How the results depend on the processing

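The count of 9 rises was 6 at an adjusted p under 0.01, 8 with Benjamini-Hochberg adjustment over every locus with a p-value (where ChrSy.fgenesh.gene.75 no longer passed, adjusted p = 0.0689), 3 at a mean count of at least 10 and 4 at a change of at least 2-fold. The fall to 3 follows from leaving out the 6 risen loci with fewer reads, and the fall to 4 from 5 risen loci whose deposited change is under 2-fold. At a mean count of at least 10, the 3 were 17.6% of 17 tested loci against 27.8% of all, whereas with no minimum 31.0% rose against 27.6%, so which share is higher depends on that minimum. Of all tested loci, 22.5% rose at 0.01, 18.5% with the wider adjustment and 11.7% at 2-fold. The 3 falls became 2, 3, 3 and 2 under the same settings, where 14.8%, 12.7%, 21.8% and 2.93% of all tested loci fell. The median log2 change was 0.13, became 0.06 over all unanchored loci with a value and turned to -0.14 at a mean count of at least 10, so it has no settled sign. With a score of at least 100, 19 of 25 H3K27me3 peaks remained, the covered share was 3.09% whether sequence length came from all files or from the H3K27me3 list alone, and H3K9me2 stayed without a peak. The 24-nt reads in Cr-DJ fell from 154 to 99 at positions with at least 10 reads and to 67 without the position of most reads, because 1 position holds 87. In osdrm2 they went from 62 to 0 and 54. Alignments of exactly 24 nt gave the same counts. No paired analysis was possible because the table has no columns per library and the recovered reads carry no repeat number. Calls without 1 library were not computed. In the 9 called loci with recovered reads the genotypes do not overlap, so the direction is the same without any 1 library. These loci were chosen by their calls, which favours libraries that do not overlap. This is therefore a description and no separate check of the calls, and the share over all called loci was not computed. The reads of ChrUn.fgenesh.gene.80 and 22 rest on the authors' change as well as on the mean.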
